A study of Bos taurus with 12 samples.

Results

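The proteasome genes of cattle (Bos taurus) precursor adipocytes were followed through 2 transfection experiments. They were taken as every gene of the count table whose identifier starts with PSMA to PSMG and a number, which gave 49 of 29240 genes. Of these, 47 passed the filter on low counts and were tested, and 2 did not. PSMC3IP, a meiotic recombination cofactor, shares the letters of the family and is no proteasome protein, so it is counted among the 49 and described apart.

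RNA was collected 48 h after transfection from 4 groups of 3 libraries. The si group received an interference agent whose target the labels do not name, and the si_NC group its negative control. The OE group received pcDNA3.1-HGFAC, a plasmid that carries the coding region of HGFAC (hepatocyte growth factor activator), and the OE_NC group pcDNA3.1-NC. Breed, age and number of donor animals are not in the labels, nor is it said whether replicates came from separate cultures, so the p-values reflect variation among these libraries, some or all of which could be technical. HGFAC stood at 190, 156 and 138 CPM (counts normalised to library size) in OE, against 0.273, 0.379 and 0.526 CPM in OE_NC. It stood at 0.843, 0.525 and 0.605 CPM in si, against 0.818, 0.738 and 0.935 CPM in si_NC, and its log2 difference between si and si_NC of -0.35 ± 0.27 (SE) did not pass the test (edgeR adjusted p = 0.512).

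The proteasome degrades proteins tagged with ubiquitin. Its 20S core is a barrel of outer rings of alpha subunits and inner rings of beta subunits, and PSMB5, PSMB6 and PSMB7 carry the proteolytic sites. The 19S cap recognises the tagged protein, removes the ubiquitin and feeds the chain into the core with a ring of PSMC ATPases. Interferon, as known from human and mouse cells, replaces the 3 catalytic subunits with PSMB8, PSMB9 and PSMB10 to give the immunoproteasome, and raises the PA28 cap of PSME1 and PSME2, which favours peptides for antigen presentation. Assembly of the core is helped by the chaperones PSMG1 to PSMG4 and POMP, and that of the 19S base by PSMD5, PSMD9 and PSMD10. The transcription factor NFE2L1 raises proteasome genes together when proteasome activity is short.

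Counts assigned to genes summed to between 28944733 and 42703663 per library, and replicates correlated at 0.9839 to 0.9927 (Pearson, log2 CPM across genes). The 9 markers of precursor and stromal cells summed to 13220 to 22680 CPM per library, mostly from VIM, COL1A1 and COL1A2. DLK1, a preadipocyte marker among these 9, stood at 0 to 0.166 CPM and did not pass the filter on low counts. The 5 markers of mature adipocytes summed to 5.626 to 16.42 CPM. In this RNA from whole cultures, fewer cells of a type and less RNA per cell cannot be told apart.

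The constitutive proteasome was abundant, and the members of one complex differed widely in their level per kilobase. Levels between genes are given as RPKM (reads per kilobase of exon, scaled to library size), as the mean of 12 libraries. Of the 49 genes, 15 averaged at least 100 RPKM, 25 lay between 10 and 100, 6 between 1 and 10, and 3 below 1. In the 20S alpha ring, which gates the core, PSMA7 was highest at 165 RPKM and PSMA1 lowest of the widely expressed subunits at 32.2 RPKM. In the constitutive beta ring the 3 catalytic subunits led: PSMB6, the caspase-like site, averaged 128 RPKM, PSMB7, the trypsin-like site, 126 RPKM and PSMB5, the chymotrypsin-like site, 90.8 RPKM. The structural subunits PSMB4 and PSMB2 were lowest at 10.2 and 10.4 RPKM, a spread of 12.6-fold within a ring that holds a single copy of each subunit.

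The 19S cap showed a wider spread. Its 6 ATPases ran between 37.5 RPKM for PSMC6 and 371 RPKM for PSMC3. Of the base scaffolds and receptors, PSMD2 averaged 245 RPKM, PSMD4, a ubiquitin receptor, 115 RPKM and PSMD1 104 RPKM. In the lid, PSMD7 averaged 639 RPKM, the highest level of the family, while PSMD14, the deubiquitinase it pairs with, averaged 33.6 RPKM and PSMD13 17 RPKM. The 8 lid subunits thus spanned 37.6-fold. The assembly chaperones differed as much: PSMG1 averaged 129 RPKM and PSMG2, with which it forms a dimer, 2.33 RPKM, while PSMD9 averaged 74.0 RPKM and PSMD5 10.8 RPKM. Among the regulators, PSME3, the nuclear PA28 subunit, averaged 23.2 RPKM, PSME4, the cap known as PA200, 5.36 RPKM, and PSMF1, the inhibitor PI31, 2.41 RPKM. An RPKM rests on the exon length in the annotation, which can bias such comparisons between genes, and how reads with several matches were counted is not given in the sources used here.

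**Figure D1:**
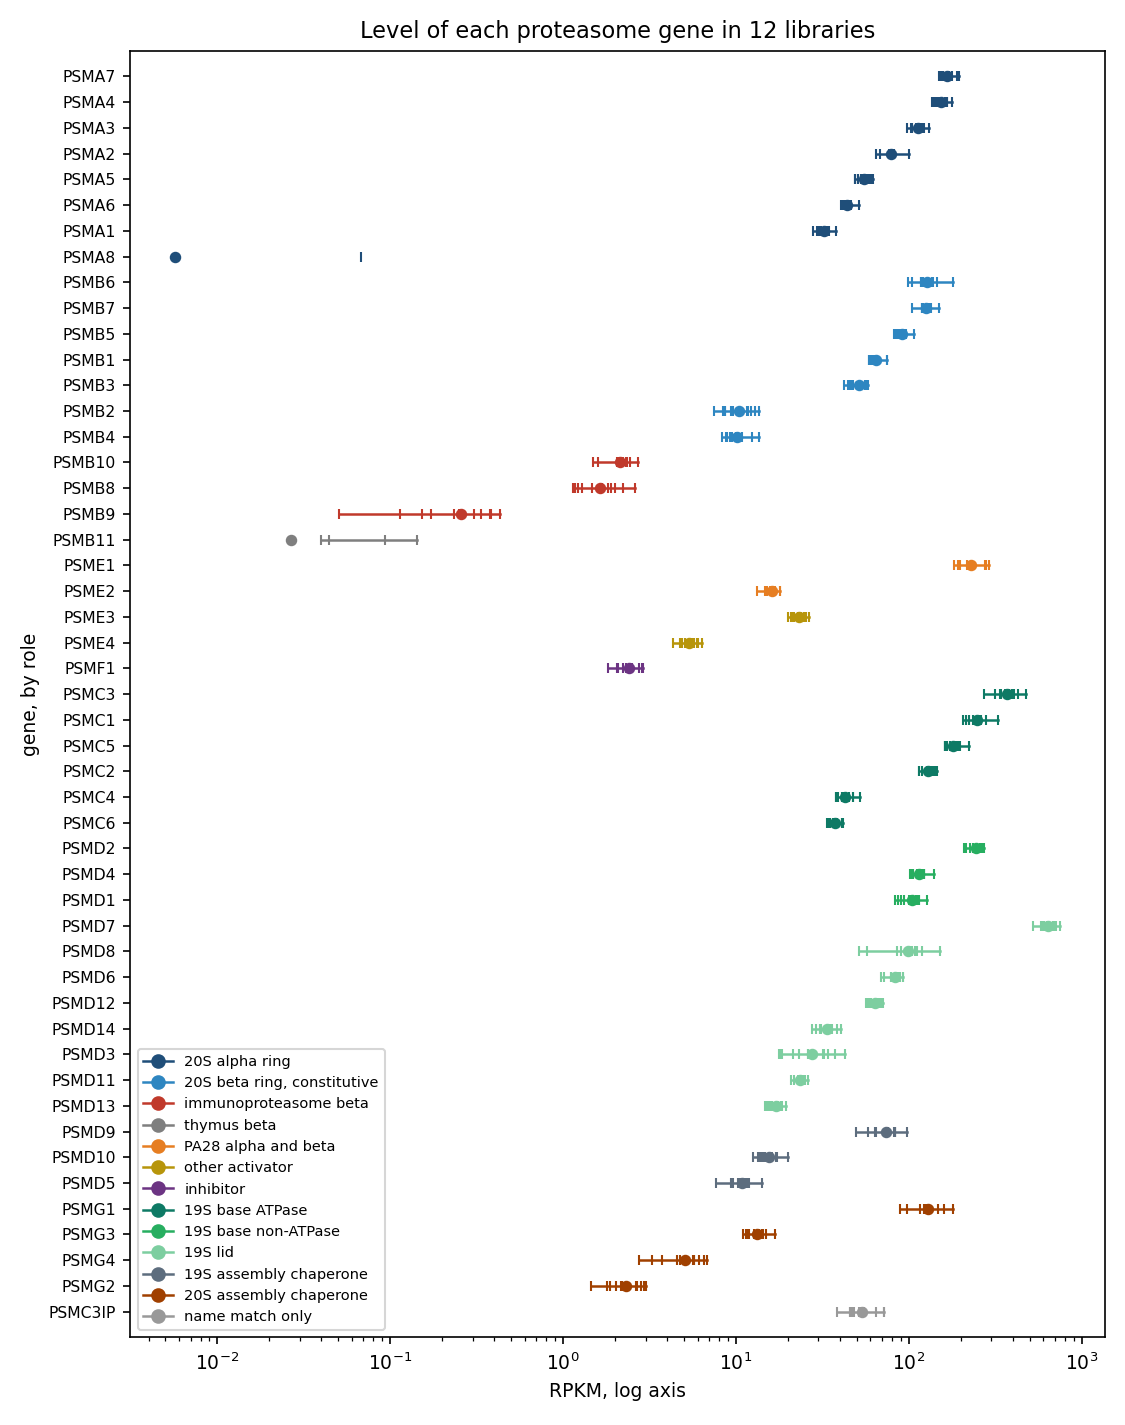
Level of each of the 49 genes in RPKM (log axis), by role. The dot is the mean of 12 libraries, ticks are single libraries and the line joins the lowest and highest; libraries at 0 are left off the axis but count in the mean. PSMD7 stands highest at 639 RPKM, and the immunoproteasome subunits PSMB10, PSMB8 and PSMB9 lie between 0.256 and 2.14 RPKM.

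The cultures held little message for the immunoproteasome core but much for 1 of the 2 PA28 subunits. PSMB10 averaged 2.14 RPKM, PSMB8 1.64 RPKM and PSMB9 0.256 RPKM, where PSMB9 rested on 2 to 18 reads per library. Together these 3 made up 0.823 to 1.51 percent of the RPKM of the 6 catalytic beta genes in each library. PSME1 was far more abundant at 229 RPKM, against 16.1 RPKM for PSME2, its partner in the PA28 ring. In the coordinates of the count table, whose genome build is not given in the sources used here, PSME2 lies on chromosome 10 from 21003884 to 21007790 on the plus strand and PSME1 on chromosome 10 from 21012734 to 21015395 on the minus strand. PSMB8 spans 7173032 to 7177044 and PSMB9 7186354 to 7193346 on chromosome 23. The exons of PSMB9 share 203 of 1091 bases with TAP1 on the other strand and those of PSMB10 share 599 of 2953 bases with LCAT on the same strand. The counting strand and the rule for shared reads are not given, so the values of both genes are uncertain.

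A pair of tissue-restricted subunits were at or near 0. PSMB11, the thymus beta subunit, had 14 reads in all: 4 in OE 1, 6 in OE_NC 1, 2 in OE_NC 2 and 2 in si 2. PSMA8, the testis alpha subunit, had 4 reads, all in si 2. A count of 0 allows up to 3 reads, or 0.0685 to 0.105 CPM by library, and covers counting error only.

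HGFAC overexpression was the first comparison, OE against OE_NC. PSME1 rose, and it was the 1 gene of 47 that passed the test, or 2.13 percent, beside 4.47 percent of all 16300 genes tested and 2.22 percent in the higher direction. A share of this size is no more than that over all genes. PSME1 had 284, 283 and 292 CPM in OE, against 225, 225 and 223 CPM in OE_NC. All 3 OE libraries lay above all 3 OE_NC libraries, and the replicates of each group lay close together. The log2 change was 0.35 ± 0.08 (SE), a 1.28-fold rise, with a 95% interval of the log2 change of 0.19 to 0.51 (edgeR quasi-likelihood test, Benjamini-Hochberg adjusted p = 0.0254). DESeq2 gave PSME1 an adjusted p of 0.00107 and limma on log2 RPKM 0.0536. In all, DESeq2 called 3 of 47 genes, or 6.38 percent, beside 9.48 percent of all genes, and limma called 0, beside 3.75 percent. With any 1 of OE 1, OE 2, OE 3, OE_NC 1 or OE_NC 2 left out the adjusted p lay between 0.0736 and 0.121, and without OE_NC 3 it was 0.0472, while the log2 change kept to 0.33 to 0.35.

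PSME2 and the immunoproteasome subunits lay on the positive side as well, without passing the test. PSME2 had 25.5, 25 and 25.3 CPM in OE, against 22.3, 21.3 and 23.6 CPM in OE_NC, with no overlap between the groups and a log2 difference of 0.17 ± 0.09 (SE, edgeR adjusted p = 0.288). PSMB8 had 4.10, 3.53 and 2.83 CPM in OE, against 2.89, 1.77 and 2.55 CPM in OE_NC. Its groups overlapped slightly, and the log2 difference was 0.54 ± 0.23 (SE, edgeR adjusted p = 0.174). PSMB10 had 6.10, 7.01 and 8.13 CPM in OE, against 6.27, 6.70 and 6.03 CPM in OE_NC, a log2 difference of 0.16 ± 0.14 (SE, edgeR adjusted p = 0.521). PSMB9 had 0.277, 0.427 and 0.370 CPM in OE, against 0.164, 0.455 and 0.277 CPM in OE_NC, values too low to compare (95% interval of the log2 difference -0.93 to 1.43). As a share of the 6 catalytic beta genes in RPKM, PSMB8, PSMB9 and PSMB10 together made up 1.51, 1.5 and 1.39 percent in OE, against 0.954, 1.07 and 1.11 percent in OE_NC, with no overlap. The same share was 0.97, 1.09 and 1.38 percent in si and 0.823, 1.43 and 0.832 percent in si_NC. Libraries without the HGFAC plasmid thus reached the range of OE, and the share was not tested.

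The constitutive partners were lower in OE at the same time, though none passed the test. PSMB5 had 115, 120 and 125 CPM in OE, against 143, 120 and 127 CPM in OE_NC. PSMB6 had 95.6, 96.8 and 110 CPM in OE, against 142, 112 and 108 CPM in OE_NC, and PSMB7 had 114, 117 and 116 CPM in OE, against 141, 120 and 119 CPM in OE_NC. In each of the 3 genes, OE_NC 1 was the highest library of its experiment. The log2 differences were -0.12 ± 0.09, -0.26 ± 0.12 and -0.13 ± 0.09 (SE) for PSMB5, PSMB6 and PSMB7, with edgeR adjusted p of 0.458, 0.215 and 0.412.

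**Figure D2:**
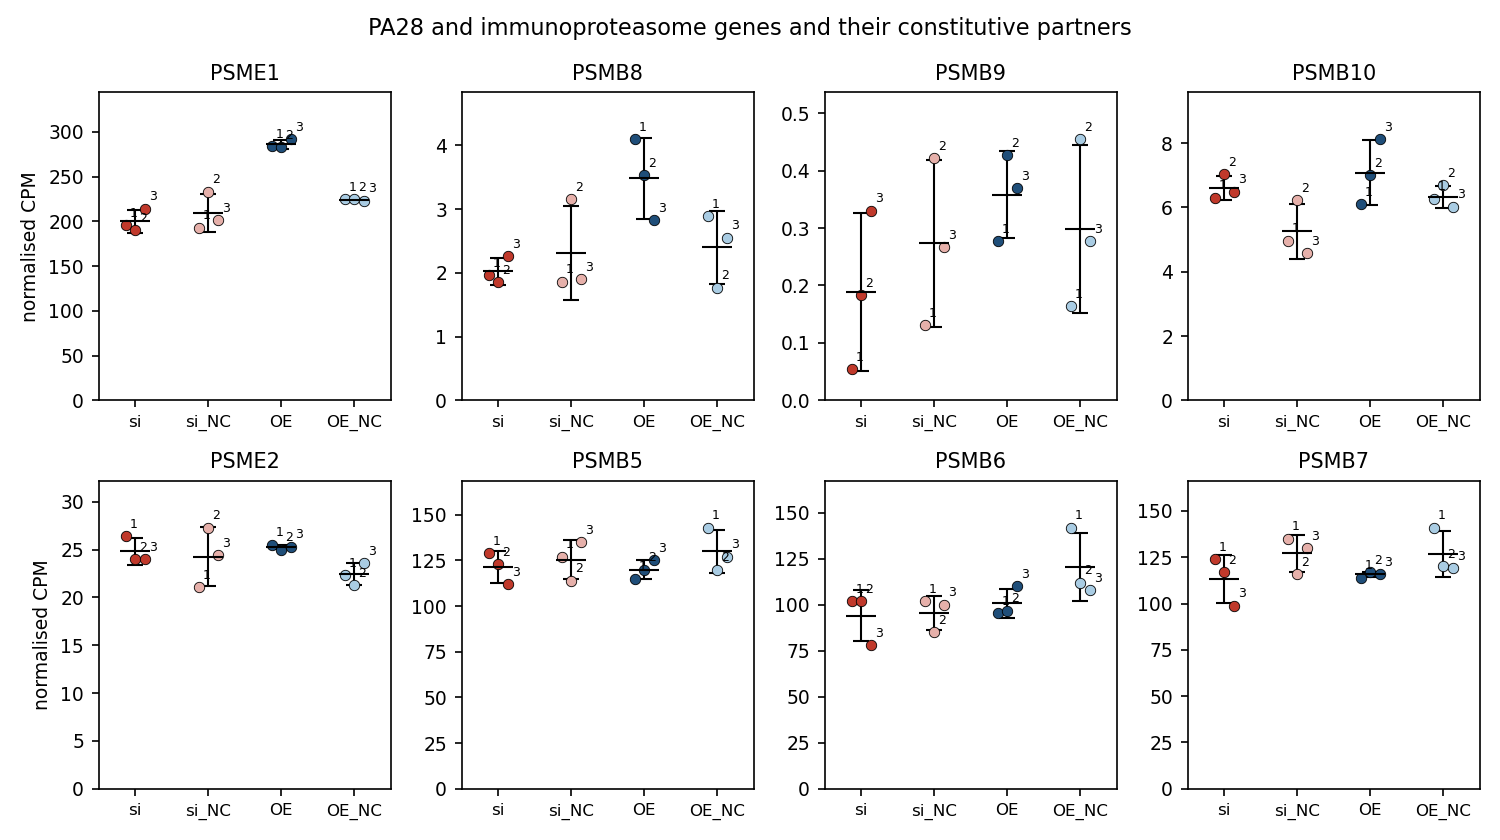
Normalised CPM of PSME1, PSMB8, PSMB9, PSMB10, PSME2, PSMB5, PSMB6 and PSMB7 in si, si_NC, OE and OE_NC; points are libraries with their replicate number, the long dash is the group mean and the bar 1 SD (n = 3). PSME1 at 283 to 292 CPM in OE stands above the other 9 libraries, and PSMB8 reaches 3.16 CPM in si_NC 2.

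Across the family, 37 of 47 genes had a log2 difference below 0 in OE, or 78.7 percent, beside 50.7 percent of all genes. The median was -0.11, against -0.005 over all genes tested. The 5 immunoproteasome and PA28 genes were all on the positive side, with a median of 0.25, and 37 of the other 42 were on the negative side, with a median of -0.13. By role, 7 of 7 constitutive beta subunits, 6 of 6 ATPases, 8 of 8 lid subunits and 3 of 3 base scaffolds and receptors were negative, as were 5 of 7 tested alpha subunits. Below an unadjusted p of 0.05 lay 14 genes on the lower side, or 29.8 percent, beside 11.8 percent of all genes, and 2 on the higher side (PSME1 and PSMB8), or 4.26 percent, beside 11.1 percent. Groups did not overlap for 15 genes that were lower in OE, or 31.9 percent, beside 16.0 percent of all genes.

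That lean changed with 1 control library and with how gene length was treated. OE_NC 1 lay above its group mean in 43 of 47 genes. The summed level of the family was 5720, 5717 and 5746 CPM in OE, against 6864, 6058 and 5818 CPM in OE_NC. The median log2 difference was -0.06 without OE_NC 1, with 34 genes below 0. Removing the library-specific trend with exon length brought it to 0.015, with 21 genes below 0, beside 0.022 over all genes. The part that library OE_NC 1 and gene length play in the lean was not tested.

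The most negative log2 differences between OE and OE_NC did not pass the test. PSMD8, a lid subunit, had 154, 90.7 and 80.3 CPM in OE, against 231, 157 and 156 CPM in OE_NC. OE 1 stood close to 2 of the OE_NC libraries, and the log2 difference was -0.75 ± 0.21 (SE, edgeR adjusted p = 0.0581). It passed without OE 1, when the difference was -1.10, and in none of the fits without another library of this experiment. PSMG4, an assembly chaperone, had 2.33, 1.42 and 1.91 CPM in OE, against 3.25, 3.34 and 2.77 CPM in OE_NC (log2 difference -0.72 ± 0.23 (SE), edgeR adjusted p = 0.082, DESeq2 0.0371). PSMB2, a structural beta subunit, followed at -0.41 ± 0.15 (SE, edgeR adjusted p = 0.111). PSMB4, the last beta subunit to join the ring, had 14.6, 13.9 and 14.2 CPM in OE, against 20.5, 16.1 and 18.3 CPM in OE_NC (log2 difference -0.37 ± 0.11 (SE), edgeR adjusted p = 0.0715, DESeq2 0.0297). All 3 OE libraries of PSMG4 and PSMB4 lay below all 3 OE_NC libraries. PSMF1 and PSME4 stood near 0, at log2 differences of 0.01 ± 0.11 and 0.03 ± 0.08 (SE).

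Genes that work with the proteasome were read from 4 lists. In the antigen processing list, 3 of 13 genes rose in OE and 0 fell, beside 2.22 percent of all genes higher and 2.25 percent lower. IRF1, an interferon-responsive transcription factor that in human and mouse cells acts on immunoproteasome genes, had 25, 26.9 and 28.9 CPM in OE, against 12.1, 13.0 and 13.8 CPM in OE_NC. That was a log2 change of 1.05 ± 0.12 (SE, edgeR adjusted p = 0.00081), and IRF1 passed in all 17 alternative fits. IRF9, the DNA-binding part of the type I interferon complex, changed by 0.58 ± 0.15 (SE, edgeR adjusted p = 0.0394), and ERAP1, which trims peptides in the endoplasmic reticulum, by 0.80 ± 0.19 (SE, edgeR adjusted p = 0.0319). TAP1 and TAP2, the peptide transporter, differed by 0.14 ± 0.35 and 0.29 ± 0.10, and B2M by -0.01 ± 0.08 (SE), none past the test. CALR, the most abundant gene of the list at 2820 RPKM, had 4650, 4910 and 4810 CPM in OE, against 5200, 5490 and 4810 CPM in OE_NC. Immune cells also carry immunoproteasome: their 9 markers summed to 8.093 to 10.05 CPM in OE, against 9.465 to 9.983 CPM in OE_NC. PTPRC, which defines white blood cells, stood at 0 to 0.171 CPM in OE, against 0 in each OE_NC library. CD68 and CD163 stood at 3.353 to 5.075 and 1.864 to 3.028 CPM over all 12 libraries. Of the 4 markers tested, 1 had a positive log2 difference (CD14, 0.57) and 3 a negative one, down to -0.59 for CSF1R. By edgeR 0 passed, and 1 had an unadjusted p under 0.05.

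Other components and the ubiquitin supply held 3 genes that fell in OE and 0 that rose, beside 2.25 percent of all genes lower and 2.22 percent higher. ADRM1, a ubiquitin receptor of the 19S base, changed by -0.30 ± 0.07 (SE, edgeR adjusted p = 0.0345), and AKIRIN2, which brings proteasomes into the nucleus in human cells, by -0.66 ± 0.16 (SE, edgeR adjusted p = 0.0397). They were 2 of 11 other components. RPS27A, which encodes ubiquitin fused to a ribosomal protein, changed by -0.46 ± 0.11 (SE, edgeR adjusted p = 0.0361), 1 of 13 ubiquitin and shuttle genes. RPS27A had 451, 466 and 474 CPM in OE, against 732, 612 and 564 CPM in OE_NC, with OE_NC 1 again the highest. None of these 3 passed with the offset for exon length, and like IRF9 and ERAP1 they passed in 1 of 6 fits with a library left out, that without OE_NC 3. IRF9 and ERAP1 also failed with limma at an added 1 or 0.1, and IRF9 with library totals. Of 15 tested genes of the NFE2L1 and NFE2L2 list, 0 passed by edgeR, beside 4.47 percent of all genes. There were 4 with an unadjusted p under 0.05, where 11.1 percent of all genes were higher and 11.8 percent lower.

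Interference was the second comparison, si against si_NC. No gene of the family passed the test, 0 of 47 by edgeR, beside 2.54 percent of all genes. Limma on log2 RPKM also called 0, beside 2.02 percent, and DESeq2 called 4 of 47, or 8.51 percent, all lower in si, beside 6.90 percent of all genes. With an unadjusted p under 0.05 there were 8 genes, or 17 percent, beside 18.9 percent of all genes. Of these, 7 were lower in si, or 14.9 percent, beside 9.88 percent of all genes, and 1 was higher (PSMB10), or 2.13 percent, beside 9.03 percent.

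The 4 genes that DESeq2 called lower in si were PSMD9, PSMD7, PSMD3 and PSMA4. PSMD9, a chaperone of the ATPase ring, had 65, 58.7 and 50.8 CPM in si, against 80.0, 67.0 and 78.9 CPM in si_NC, a log2 difference of -0.37 ± 0.10 (SE, edgeR adjusted p = 0.0676, DESeq2 0.0116). PSMD7 had 695, 691 and 579 CPM in si, against 891, 743 and 829 CPM in si_NC, a log2 difference of -0.33 ± 0.09 (SE, edgeR adjusted p = 0.0739, DESeq2 0.0177). In both genes the groups did not overlap, and si 3 was the lowest library. PSMA4, of the alpha ring, had 165, 168 and 182 CPM in si, against 211, 192 and 195 CPM in si_NC, with no overlap. PSMD3, of the lid, had 54.2, 65.9 and 71.3 CPM in si, against 95.3, 80.9 and 71.1 CPM in si_NC, and its groups met at about 71 CPM. Groups did not overlap for 10 of 47 genes, or 21.3 percent, beside 20.8 percent of all genes.

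The inducible genes were not on one side in si. PSME1 had 196, 190 and 214 CPM in si, against 193, 233 and 201 CPM in si_NC, and PSME2 26.4, 24.0 and 24.0 CPM in si, against 21.1, 27.3 and 24.4 CPM in si_NC. The groups overlapped in both genes, with log2 differences of -0.06 ± 0.08 and 0.03 ± 0.09 (SE) and 95% intervals of -0.22 to 0.10 and -0.17 to 0.23. PSMB8 had 1.96, 1.85 and 2.26 CPM in si, against 1.86, 3.16 and 1.90 CPM in si_NC. PSMB10 had 6.31, 7.03 and 6.49 CPM in si, against 4.97, 6.22 and 4.57 CPM in si_NC, with no overlap and a log2 difference of 0.33 ± 0.14 (SE, edgeR adjusted p = 0.21). PSMB9 stood at 0.0544, 0.183 and 0.330 CPM in si, against 0.131, 0.422 and 0.267 CPM in si_NC. Their partners PSMB5, PSMB6 and PSMB7 differed by -0.05 ± 0.09, -0.03 ± 0.12 and -0.17 ± 0.09 (SE, edgeR adjusted p 0.825, 0.928 and 0.356).

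The family as a whole lay lower in si relative to all genes. Of 47 genes, 35 had a log2 difference below 0, or 74.5 percent, beside 46.0 percent of all genes, and the median was -0.07, against 0.025 over all genes tested. The gap between these medians was -0.096, and 37 of 47 genes lay below the median of all genes. Scaling to library totals moved all genes together: 22 family genes were then below 0, the gap was -0.095 and 37 lay below the median of all genes. With the offset for exon length the gap was -0.126. It was -0.052 without si 3, -0.06 without si_NC 1 and -0.159 without si_NC 2. The gap was smallest, at -0.039, with limma on log2 RPKM plus 1, where 31 of 47 genes lay below the median of all genes. With a filter of 5 CPM in 3 libraries it was -0.052, with 31 of 43 genes below that median. These gaps are a description and carry no test. Among the partner lists, 2 of 11 other components fell, beside 1.62 percent of all genes called lower. SEM1, a small 19S subunit and the most abundant of that list at 1270 RPKM, had 559, 532 and 529 CPM in si, against 762, 618 and 720 CPM in si_NC, a change of -0.38 ± 0.08 (SE, edgeR adjusted p = 0.0326) that did not pass without si 1, si 2, si_NC 1 or si_NC 3, with library totals, with limma or when only si and si_NC were fitted (adjusted p of up to 0.154). UBE3A, a ubiquitin ligase that docks on the proteasome, had 132, 130 and 140 CPM in si, against 193, 170 and 183 CPM in si_NC, a change of -0.44 ± 0.07 (SE, edgeR adjusted p = 0.00702). It passed without each single library and failed when only si and si_NC were fitted. No gene of the other 3 lists passed in si by edgeR, with an unadjusted p under 0.05 for 2 of 13 antigen processing genes, 1 of 15 NFE2L1 and NFE2L2 genes and 5 of 13 ubiquitin and shuttle genes. Over all genes, 18.9 percent had an unadjusted p under 0.05.

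**Figure D3:**
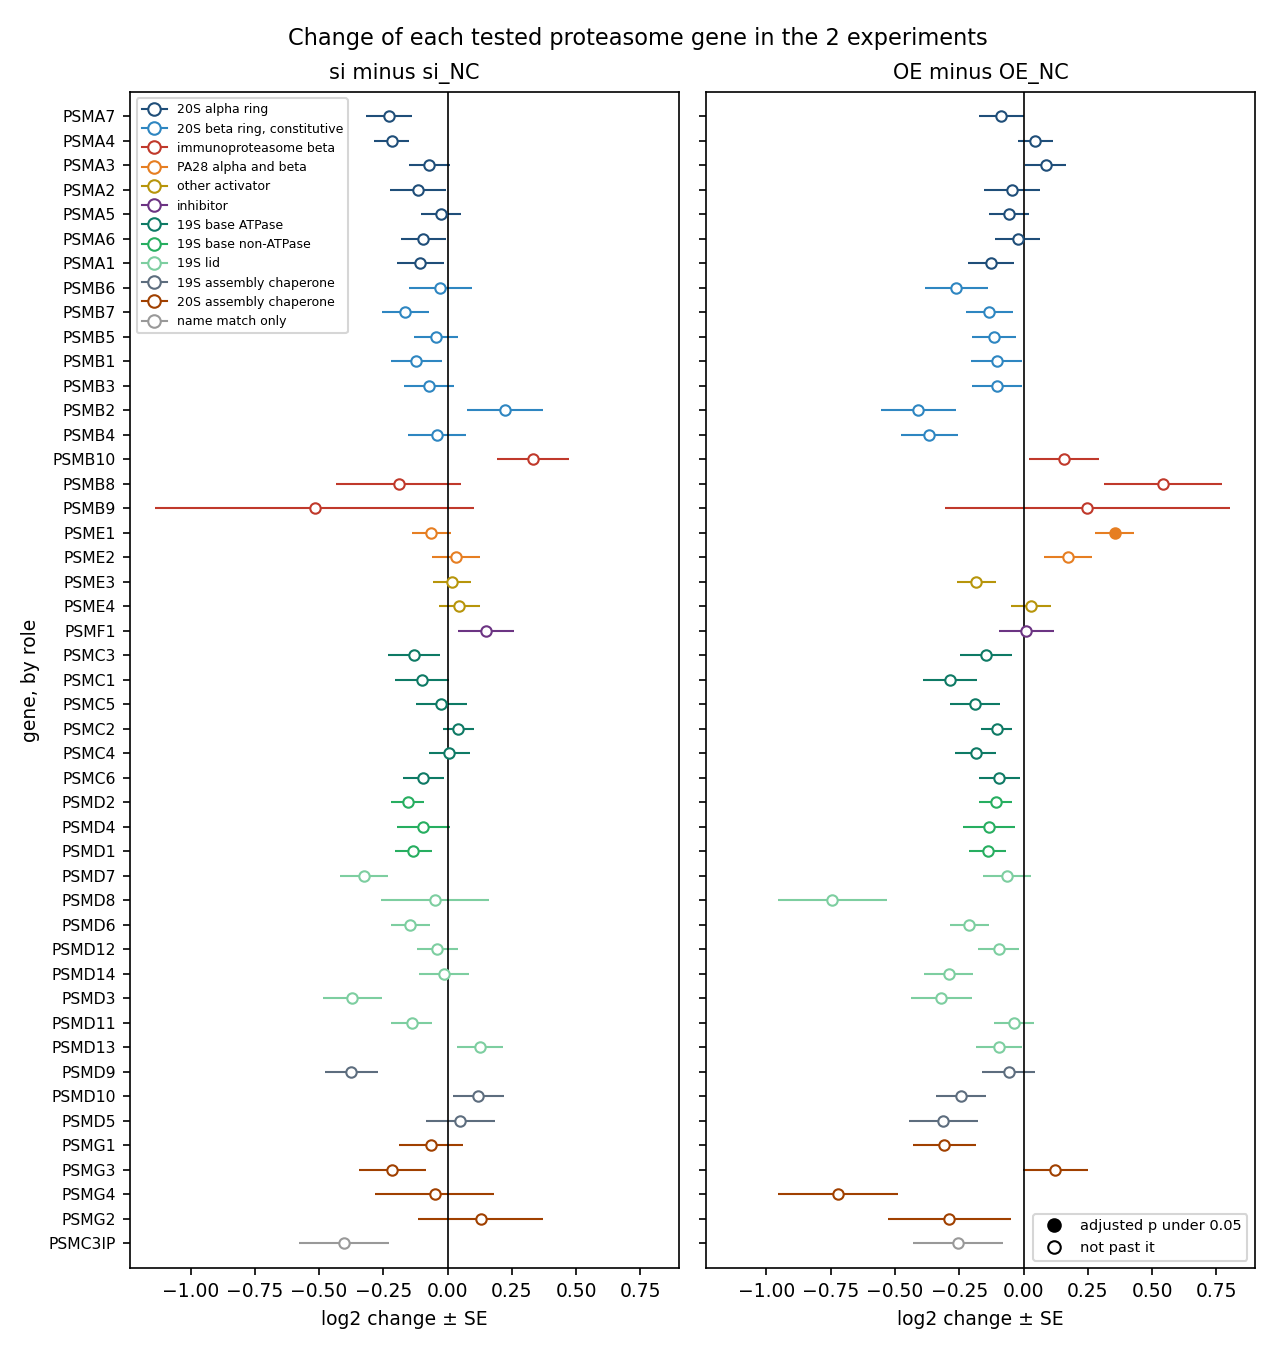
Log2 change of the 47 tested genes in si minus si_NC and in OE minus OE_NC, by role; points are edgeR estimates, bars 1 SE, and filled points have an adjusted p under 0.05. PSME1 at 0.35 in OE minus OE_NC is the 1 filled point; 35 genes lie below 0 in si minus si_NC and 37 in OE minus OE_NC.

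Whether the change in OE differed from that in si was tested directly as the difference of the 2 changes. PSME1 passed, 1 of 47 or 2.13 percent, beside 8.41 percent of all genes. DESeq2 called 2 genes, or 4.26 percent, beside 12.0 percent, and limma 4, or 8.51 percent, beside 8.74 percent. Of 47 genes 28 had a difference below 0, or 59.6 percent, beside 52.6 percent of all genes. Its change against control was higher in the overexpression experiment by 0.42 ± 0.11 on the log2 scale (SE, edgeR adjusted p = 0.027), with DESeq2 at 0.00368 and limma at 0.132. The call was absent in 10 of 23 alternative fits, 7 of which left out OE 1, OE 2, OE 3, OE_NC 2, OE_NC 3, si 1 or si 2, with adjusted p of up to 0.137 over all 23. PSMB8 differed by 0.73 ± 0.34 (SE, edgeR adjusted p = 0.191) and PSME2 by 0.14 ± 0.13 (SE, edgeR adjusted p = 0.567). PSMB2 was on the higher side in si (9.65, 9.20 and 6.90 CPM in si, against 7.13, 7.66 and 7.28 CPM in si_NC) and on the lower side in OE (6.04, 7.92 and 8.62 CPM in OE, against 10.8, 10.1 and 9.11 CPM in OE_NC). Its difference of -0.63 ± 0.21 (SE) had an edgeR adjusted p of 0.074 and a DESeq2 adjusted p of 0.0445.

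Within a group, most of the family lay on one side of the group mean in several libraries. In si 3, 35 of 47 genes lay below their group mean, in si_NC 2 37, in OE_NC 2 37 and in OE_NC 3 41. In si_NC 1, 36 lay above it, and in OE_NC 1 43. The deviations of the 3 libraries of a group sum to 0 for each gene. A library far to one side thus moves the others to the opposite side, and the libraries of a group are not separate observations. Over all genes tested, 49 to 51.8 percent lay above the group mean in the libraries named. In si_NC 2 the 5 inducible genes went the other way: all 5 lay above the group mean, with PSME1 at 233 CPM and PSMB8 at 3.16 CPM, while 37 of the other 42 lay below. In si_NC 1, of the same group, 0 of the 5 lay above, beside 36 of the other 42. In si 3, 3 of the 5 lay above and 33 of the other 42 below. In OE_NC 1, 41 of the other 42 lay above, beside 2 of the 5. This split was seen in the values first and is a description. Spread between replicates of this kind enters each comparison above.

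**Figure D4:**
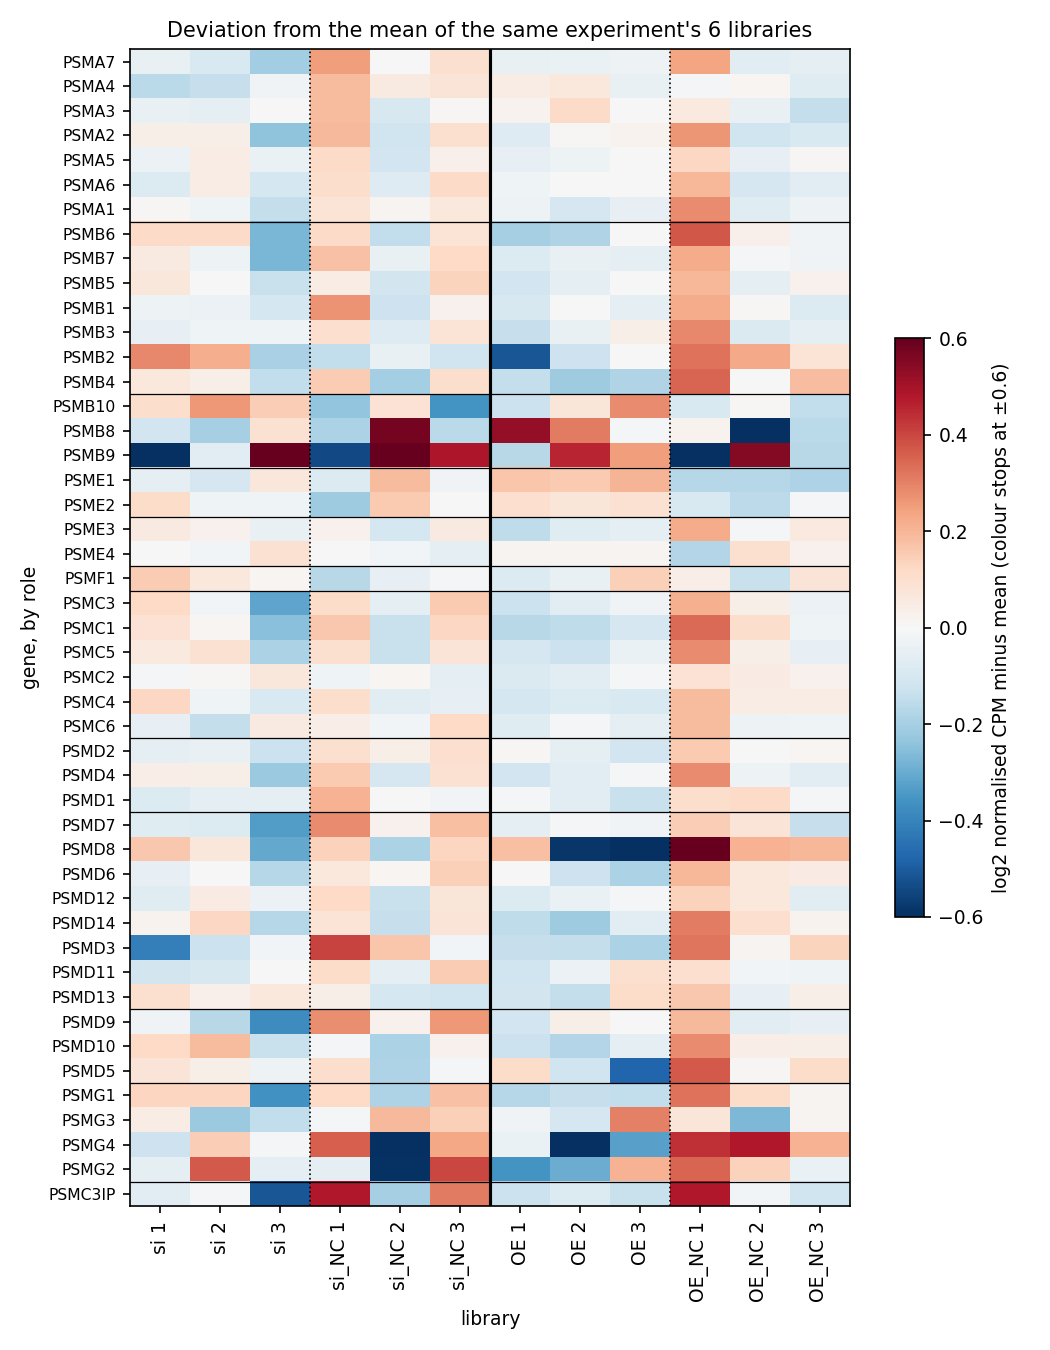
Log2 normalised CPM of the 47 tested genes (rows, by role) in the 12 libraries (columns), each minus the mean of the 6 libraries of the same experiment; red is higher, blue lower, and colours stop at ±0.6. OE_NC 1 is red over most roles, si 3 is blue over most roles, and PSME1 is red in all 3 OE libraries.

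The 2 control groups, which received no HGFAC plasmid and no interference agent but different control material, were set side by side as OE_NC minus si_NC. The transfected agent and any other difference between the 2 experiments cannot be told apart in this comparison. Of the 47 genes 10 passed, or 21.3 percent, beside 19.7 percent of all genes, so the share was near that of any gene. They were 4 that were higher in OE_NC, or 8.51 percent, beside 9.49 percent, and 6 that were lower, or 12.8 percent, beside 10.2 percent. The split became 9 higher and 3 lower with library totals, when 14.1 percent of all genes were called higher and 5.79 percent lower. It became 2 higher and 21 lower with the offset for exon length, when 6.36 percent of all genes were called higher and 16.9 percent lower. In both settings the split over all genes moved the same way as that of the family. The share called was 25.5 percent of the family and 19.9 percent of all genes with library totals. With the offset for exon length it was 48.9 percent of the family and 23.3 percent of all genes, so there the family exceeded all genes. DESeq2 called 11 genes, or 23.4 percent, beside 22.9 percent, and limma 13, or 27.7 percent, beside 19.6 percent. Groups did not overlap for 15 genes, or 31.9 percent, beside 35.8 percent of all genes.

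The lower genes were 3 subunits of the 19S cap, 2 of the alpha ring and the activator PSME4. PSMD3 had 54.5, 44.0 and 47.8 CPM in OE_NC, against 95.3, 80.9 and 71.1 CPM in si_NC, a log2 change of -0.76 ± 0.12 (SE, edgeR adjusted p = 0.000836). PSMD1, the base scaffold, had 322, 324 and 297 CPM in OE_NC, against 438, 379 and 374 CPM in si_NC (-0.34 ± 0.07 (SE), edgeR adjusted p = 0.00525). PSMA4 had 160, 162 and 153 CPM in OE_NC, against 211, 192 and 195 CPM in si_NC (-0.33 ± 0.07 (SE), edgeR adjusted p = 0.004). These 3 genes had no overlap between groups and passed in each of 18 alternative fits. PSMA3 (-0.30), PSME4 (-0.28) and PSMD2 (-0.24) also fell on the log2 scale. All of them lost their call with library totals, with limma and when only OE_NC and si_NC were fitted. PSMA3 and PSMD2 also lost it without OE_NC 2 or OE_NC 3. It was lost without si_NC 1 for PSMA3 and PSME4, without OE_NC 1 for PSME4 and without si_NC 3 for PSMD2.

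The higher genes were 2 chaperones, a beta subunit and an inhibitor. PSMG1, an alpha ring chaperone, had 183, 158 and 148 CPM in OE_NC, against 126, 102 and 131 CPM in si_NC, a log2 change of 0.44 ± 0.12 (SE, edgeR adjusted p = 0.0226). PSMB2 had 10.8, 10.1 and 9.11 CPM in OE_NC, against 7.13, 7.66 and 7.28 CPM in si_NC (0.44 ± 0.15 (SE), edgeR adjusted p = 0.0481). PSMF1 rose by 0.35 ± 0.11 (SE, edgeR adjusted p = 0.0342) and PSMD10, the 19S chaperone gankyrin, by 0.33 ± 0.10 (SE, edgeR adjusted p = 0.0281). None of these 4 passed without OE_NC 1 or without si_NC 2, which were among the libraries named above. PSMG1 also lost its call without OE_NC 2, PSMD10 without si_NC 1, PSMB2 without si_NC 1, si_NC 3 or OE_NC 2, and PSMF1 without si_NC 1, si_NC 3 or OE_NC 3. PSMG1 and PSMB2 failed with the offset for exon length too. Their log2 changes went down to 0.17 and 0.13 over all alternative fits. PSMB2 also failed with the replicate block, and PSMF1 with no filter on low counts or when only OE_NC and si_NC were fitted. PSME1 had 225, 225 and 223 CPM in OE_NC, against 193, 233 and 201 CPM in si_NC, and did not pass (0.10 ± 0.08 (SE), edgeR adjusted p = 0.372).

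Genes of the lists around the proteasome also differed between the control groups. Over all genes, 9.49 percent were called higher in OE_NC and 10.2 percent lower. Of 15 tested genes of the NFE2L1 and NFE2L2 list, 7 were lower in OE_NC and 0 higher, with a median of -0.44, against 0.02 over all genes and -0.001 over the family. SRXN1, a sulfiredoxin, had 80.7, 79.9 and 71.1 CPM in OE_NC, against 186, 177 and 177 CPM in si_NC (-1.22 ± 0.08 (SE), edgeR adjusted p = 4.76e-06). TXNRD1, a thioredoxin reductase and the most abundant of the list at 167 RPKM, had 447, 378 and 370 CPM in OE_NC, against 753, 779 and 812 CPM in si_NC (-0.97 ± 0.07 (SE), edgeR adjusted p = 6.55e-06). NFE2L1 had 277, 305 and 304 CPM in OE_NC, against 395, 426 and 395 CPM in si_NC (-0.46 ± 0.10 (SE), edgeR adjusted p = 0.00462), and NFE2L2 changed by -0.50 ± 0.08 (SE, edgeR adjusted p = 0.000782). HMOX1, MAFG and GCLM were the other 3, at -0.71, -0.44 and -0.68. Of 11 other components POMP, a chaperone of the core, rose by 0.53 ± 0.12 (SE, edgeR adjusted p = 0.00724) and PAAF1 by 0.41, while SEM1 and UCHL5 fell by 0.30 and 0.32. Of 13 ubiquitin and shuttle genes 1 rose (RPS27A, by 0.38) and 3 fell (ZFAND5, VCP and NPLOC4, by 0.40 to 0.58), and of 13 antigen processing genes 2 rose (IRF1 and B2M) and 3 fell (CANX, CALR and PDIA3). With the offset for exon length RPS27A stood at 0.05 (adjusted p = 0.609) and B2M at 0.12 (adjusted p = 0.309), so neither passed, and RPS27A also failed without si_NC 2, si_NC 3, OE_NC 1 or OE_NC 2. SEM1, UCHL5, GCLM and PDIA3 lost their call with library totals and in 2 to 4 of 6 fits with a library left out: SEM1 without si_NC 1, si_NC 3, OE_NC 2 or OE_NC 3, UCHL5 and GCLM without si_NC 1, OE_NC 2 or OE_NC 3, and PDIA3 without si_NC 2 or OE_NC 1. SEM1, UCHL5, GCLM and PDIA3 also lost their call when only OE_NC and si_NC were fitted and with limma, for GCLM at an added 0.1 alone. PDIA3 failed too with the filter of 5 CPM in 3 libraries. CALR lost its call with limma.

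**Figure D5:**
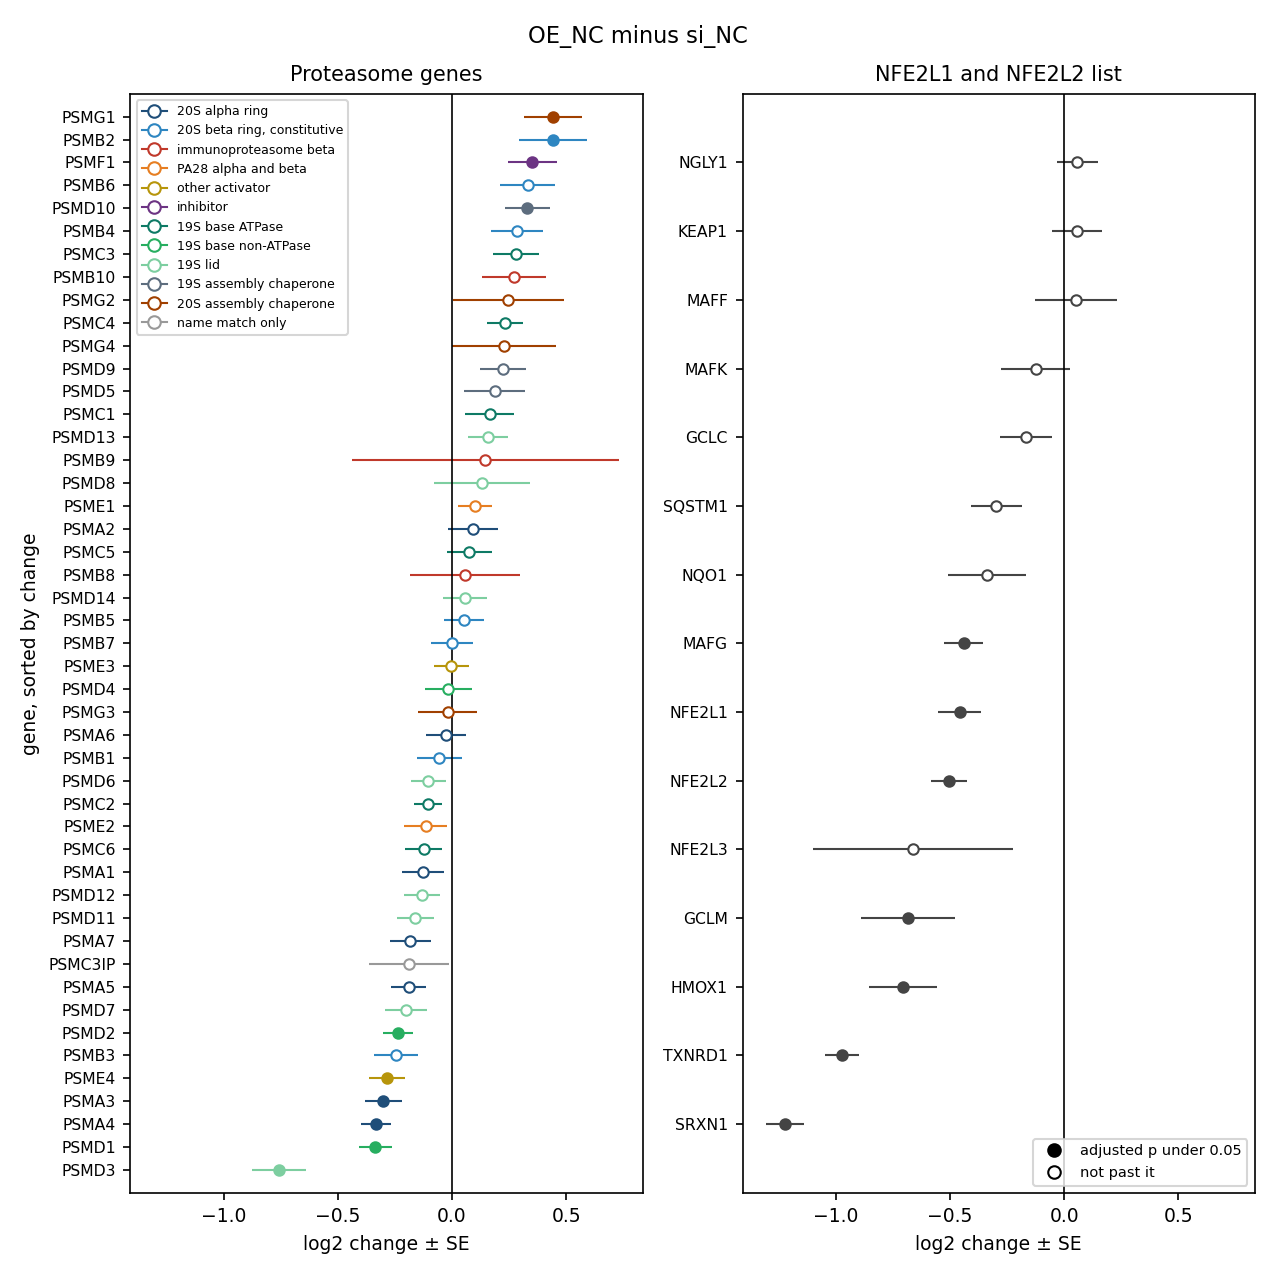
Log2 change in OE_NC minus si_NC for the 47 tested proteasome genes (left, sorted) and the 15 tested genes of the NFE2L1 and NFE2L2 list (right); points are edgeR estimates, bars 1 SE, and filled points have an adjusted p under 0.05. The family lies on both sides of 0 between -0.76 for PSMD3 and 0.44 for PSMG1, while 12 of the 15 list genes lie below 0.

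PSMC3IP, which matches by name alone, averaged 53.3 RPKM and shares 400 of its 1292 exon bases with MLX on the other strand. It had 67.1, 69.8 and 49.2 CPM in si, against 97.9, 61.1 and 87.2 CPM in si_NC, and 59.8, 61.8 and 59.5 CPM in OE, against 91.1, 64.7 and 60.2 CPM in OE_NC. It passed in none of the 4 comparisons by edgeR, with an unadjusted p under 0.05 in si against si_NC alone (edgeR adjusted p = 0.226). PSMA4 and PSMD6 also share exon bases with a neighbour on the other strand, over 62 of 1130 bases and 278 of 1337 bases.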

How the data were processed

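Cattle precursor adipocytes were profiled by stranded sequencing of polyadenylated RNA, per the labels' protocols, in 12 libraries grouped by sample title. The authors deposited a table of raw counts and a table of RPKM. Per the submitters' processing notes, reads were handled with fastp 0.23.0 and featureCounts of Subread 1.5.1. Aligner, genome build, counting strand and handling of multiply matching reads: not given in the sources used here. RPKM recomputed from counts, exon length and column totals differed from the deposited RPKM by a relative 5.3e-15 at most. Even values made up 66.2 to 69.3 percent of nonzero counts. If each read of a pair was counted, the floors for a count of 0 are too low. The intervals rest mainly on the spread between replicates. With halved counts, 2.96 percent of 14614 genes were called in si minus si_NC and 5.87 percent in OE minus OE_NC. In the reported fit these shares were 2.54 and 4.47 percent of 16300 genes. The 2 entries without a gene name (0.0868 to 0.116 percent of counts) were dropped, and 0 columns were unmapped.

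The counts as deposited were tested with edgeR 4.0.16 (R 4.3.3): filterByExpr with a minimum count of 10 and total of 15 left 16300 genes, TMM scaled them, and a single quasi-likelihood model with a mean for each group was fitted to all 12 libraries, leaving 8 residual degrees of freedom. Benjamini-Hochberg adjustment covered every gene tested, at a threshold of 0.05. Standard errors were obtained as log2 change over square root of F. si was compared with si_NC, OE with OE_NC, one change with the other, and OE_NC with si_NC. Alternatives were DESeq2 1.42.0, limma 3.58.1 on log2 RPKM with 1 or 0.1 added, other scaling and filters, a replicate block, an exon-length offset (spline with 4 degrees of freedom), halved counts and omitted libraries. The procedure was tested on simulated data. Genes were named by rule: every member called, the immunoproteasome and PA28 genes with their partners, the extremes of each role, untested members, and called or most abundant genes of the 4 related lists; other values were chosen after they were seen. The members and lists were chosen with earlier results of these data known. All 49 members were found by symbol in a RefSeq gene table (ARS-UCD2.0), 26 of them with an identical span, and coordinates were taken from the count table. Some genes of the ubiquitin and shuttle list are not reported here and are left out of its counts, though not out of the fit. Sequences were not analysed here, and promoter motifs were not searched.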

Additional observations from a re-analysis of the deposited data

Results flagged for a closer look

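The change in OE minus OE_NC differed from that in si minus si_NC, by the test of the difference itself (edgeR, adjusted over all genes), for 1 proteasome gene and 8 genes of the lists around it. Over all genes, 8.41 percent passed that test. PSME1, of the PA28 cap, differed by 0.42 on the log2 scale. In the antigen processing list IRF1 differed by 0.82, TAP2, a chain of the peptide transporter, by 0.49 and CANX, a chaperone of the endoplasmic reticulum, by 0.39. TAP2 had 19.6, 21.5 and 19.1 CPM in OE, against 14.8, 17 and 17.6 CPM in OE_NC, and 15, 12.9 and 16.0 CPM in si, against 16.8, 16.6 and 17 CPM in si_NC. The groups did not overlap in either experiment, and the directions were opposite, but the call for TAP2 (adjusted p = 0.0455) held in 6 of 23 alternative fits and in 1 of 12 with a library left out, that without si 3. It was lost, among others, with library totals (0.36, adjusted p = 0.128) and limma. IRF1 and UBE3A passed in all 23, and CANX in 20, failing with library totals and limma.

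POMP, a chaperone of core assembly, differed by -0.7, UBE3A by 0.64 and NFE2L1 by 0.52. POMP had 56.3, 54.5 and 65.8 CPM in OE, against 83.8, 78.0 and 72.1 CPM in OE_NC, and 71.3, 73.8 and 54.2 CPM in si, against 51.8, 49.6 and 61.1 CPM in si_NC, where si 3 lay within the si_NC range. NFE2L1 had 366, 369 and 365 CPM in OE, against 277, 305 and 304 CPM in OE_NC, and 324, 308 and 418 CPM in si, against 395, 426 and 395 CPM in si_NC, where si 3 again lay within the si_NC range. In the ubiquitin and shuttle list RPS27A differed by -0.53 and UFD1, a partner of VCP, by -0.36. RPS27A passed in 11 of 23 alternative fits and 2 of 12 with a library left out (those without si 3 and OE_NC 3), and with the offset for exon length its difference was -0.12 (adjusted p = 0.483). UFD1 passed in 7 of 23 and 1 of 12, that without si 3. POMP passed in 16 of 23 and NFE2L1 in 13 of 23, with 6 of 12 and 5 of 12 when a library was left out; for POMP the offset gave -0.42. Each library was left out in turn, but no formal test for an outlying sample was run within the groups of 3 libraries.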

How the results depend on the processing

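The count of proteasome genes past the threshold was 0 in si minus si_NC, and under other settings it was 4 with DESeq2, 4 with no filter on low counts, 7 with the offset for exon length and 4 without si replicate 3 and si_NC replicate 2 together. Calls over all genes moved as well, at 2.54 percent in the reported fit and 6.9, 4.13, 6.71 and 6.7 percent in these 4 settings, beside 8.51, 8.51, 14.9 and 8.51 percent of the family. Leaving out 1 library gave 0 to 3, with 2 without si 3 and 3 without si_NC 2. In OE minus OE_NC the count of 1 became 4 with library totals, 3 with DESeq2, 8 with no filter, 2 with a filter of 5 CPM in 3 libraries, 7 with only the groups compared, 0 and 0 with limma at an added 1 and 0.1, and 2 with the offset for exon length; leaving out 1 library gave 0 to 1, at 0 without OE 2, OE 3, OE_NC 1 or OE_NC 2, when calls over all genes also dropped to between 19 and 45. For the difference of the changes the count of 1 became 3 with library totals, 2 with DESeq2, 3 with no filter, 2 with the 5 CPM filter, 4 and 3 with limma, 9 with the offset for exon length and 4 without si replicate 3 and si_NC replicate 2 together; leaving out 1 library gave 0 to 3, with 3 without si 3. For OE_NC minus si_NC the count of 10 became 6 with only the groups compared and 23 with the offset for exon length, and 6 to 8 with 1 library left out, at 6 without si_NC 1 or OE_NC 2. Over all genes, the share called in OE minus OE_NC was 4.47 percent in the reported fit and 4.98, 9.48, 5.74, 7.53, 10.3, 3.75, 3.21 and 3.31 percent in the settings as listed. For the difference it was 8.41 percent and 9.41, 12, 6.6, 12.3, 8.74, 8.57, 11.1 and 13.8 percent, and for OE_NC minus si_NC 19.7 percent and 15.6 and 23.3 percent. The cause of these changes was not tested. No value that passed its test reversed its sign under these settings. Library totals moved the median log2 change of all genes to 0.104 in place of 0.025 in si minus si_NC, 0.112 in place of 0.020 in OE_NC minus si_NC and -0.16 in place of -0.025 in the difference.

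No pairing by replicate number was apparent, though 3 libraries per group cannot settle whether libraries were paired. Correlations of same-numbered deviations were 0.092, -0.257 and -0.191 between si and si_NC and 0.045, -0.01 and -0.015 between OE and OE_NC. Differently numbered libraries ran between -0.185 and 0.332 for si with si_NC, highest for si 3 with si_NC 2. For OE with OE_NC they ran between -0.035 and 0.048. With replicate number as a block the counts were 0 in si minus si_NC, 2 in OE minus OE_NC (PSME1 and PSMD8), 2 for the difference and 10 in OE_NC minus si_NC, where PSMC4 came in and PSMB2 dropped out. Depth limits PSMB9, PSMA8 and PSMB11, whose counts are too low for a comparison.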
